A study of Mus musculus with 4 samples.

Results

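Histone mRNAs made in S phase are transcribed and finished by a small set of dedicated proteins, and 10 of these were followed here: Npat and Casp8ap2, which act on transcription, Slbp, Lsm10, Lsm11, Zfp473, Cpsf2, Cpsf3 and Sympk, which act on the 3′ end, and Eri1, which acts on decay. They were listed by name from the known pathway, by a rule that holds no measured value but with the change of the histone transcripts in these data known, and 10 of the 10 were found among the 17104 genes of the table. A mean FPKM of at least 0.1 was required for a test, which 9 of the 10 met, beside 11774 genes in all. FPKM is the number of fragments per kilobase of gene, scaled to the depth of the library. The cells were mouse MLL-AF9 acute myeloid leukemia (AML) cells that were YFP+ and c-kit+, sorted as leukemia stem cells (LSCs) from the bone marrow of secondary recipients at week 6. Leukemia was started in lineage-negative cells of CD37 fl/fl, Cre+ mice by a retrovirus carrying MLL-AF9 and YFP, so that both groups carried the fusion gene, the floxed Cd37 alleles and a tamoxifen-inducible Cre. Tamoxifen had been given to delete Cd37 (CD37 -/-), and corn oil to the control (CD37 fl/fl), each with 2 replicates of poly(A) RNA. The groups therefore also differ in the drug, and loss of Cd37 and tamoxifen cannot be told apart in these 4 libraries.

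Most mRNAs end in a poly(A) tail, but the mRNAs of the replication-dependent histones end in a conserved stem-loop. Cyclin E and CDK2 act on NPAT, the coactivator of these genes at the histone locus body, where FLASH, the product of Casp8ap2, also resides. SLBP binds the stem-loop, the U7 snRNP with its ring proteins LSM10 and LSM11 pairs with a downstream element, ZFP100 (Zfp473) bridges SLBP and U7, and FLASH with LSM11 recruits symplekin (Sympk), CPSF100 (Cpsf2) and CPSF73 (Cpsf3), the last of which cuts the RNA. ERI1, a 3′ exonuclease, binds the same stem-loop and trims it during decay.

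The sequence on which SLBP and ERI1 act is shown first, because the histone transcripts that carry it are the substrate of the factors described here. Annotated mouse transcripts (GENCODE M21) were searched along their whole length on the sense strand. The pattern was GG, 3 free bases, TTT, 2 free bases, A, 3 free bases and CC. Arms of 6 bases had to pair with each other around a loop of 4 bases. At least 1 transcript held a match in 37 of the 55 histone cluster genes of the table (67.3%), against 32 of 21848 other protein-coding genes (0.146%). The other genes were all those outside these 55, so they can include histone genes absent from the table or named otherwise. The letters found fell into 6 distinct cores, of which the commonest was carried by 20 of the 36 tested genes with a match. Capitals mark the stem-loop, with 5 bases on each side. In the order shown, 23, 770, 74, 57 and 385 bases of the annotated transcript followed it, so it was not always near the annotated end.
Hist1h2bj: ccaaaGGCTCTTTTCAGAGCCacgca
Hist1h4d: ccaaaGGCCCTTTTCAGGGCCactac
Hist1h3c: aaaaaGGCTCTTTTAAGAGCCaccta
Hist2h2ac: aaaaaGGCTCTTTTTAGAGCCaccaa
Hist1h4j: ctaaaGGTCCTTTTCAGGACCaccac
Across these 5 examples the middle letters of the arms differ in pairs, which the search required of every match. The last base of the loop, which the search left free, varies.

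The 4 libraries were compared before any member. Whole reads were recovered from 98.9% of the deposited values, with totals between 15327357 and 22627491 reads per library. The deleted gene, Cd37, had FPKM values of 56.6 and 46.8 in CD37 fl/fl and of 23.2 and 22.9 in CD37 -/-. Its log2 fold change, CD37 -/- against CD37 fl/fl, was -1.15 (adjusted p = 0.13 by limma), so it too missed an adjusted p of 0.05. Only part of Cd37 was floxed, so reads over the whole gene do not measure the deletion itself. Of the markers expected of the sorted cells, 6 of 7 were in the table and together took 0.135% and 0.11% of the CD37 fl/fl reads and 0.11% and 0.105% of the CD37 -/- reads. This sum hides changes in both directions. The 5 of these markers that were tested had log2 fold changes, CD37 -/- against CD37 fl/fl, from -1.26 to 1.4, with 4 above 0 and 1 below. Kit, the sorting marker, had an FPKM of 0.17 and 0.325 in CD37 fl/fl against 0.327 and 0.434 in CD37 -/-. This FPKM is per kilobase of the whole gene span, introns included. It compares the libraries and does not show how strongly Kit was expressed beside other genes. Among markers of other cells, the late neutrophil list (5 of 5 in the table) took 3.31% and 0.647% of the CD37 fl/fl reads and 3.2% and 2.02% of the CD37 -/- reads, so that CD37 fl/fl replicate 2 stood apart. The erythroid list (7 of 8 in the table) took 0.0071% and 0.000669% of the CD37 fl/fl reads against 0.0703% and 0.0185% of the CD37 -/- reads. Lists for macrophages, B cells and stroma with endothelium each took 0.0154% or less of any library, and 3 of 7 T and NK cell markers were in the table, with 9 to 24 reads in all.

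The 10 factors were expressed over a wide range. On a scale with the exon length in place of the whole gene span, which allows genes to be compared, the mean over the 4 libraries ran from an FPKM of 32.8 for Cpsf3, the endonuclease, down to 0.144 for Zfp473. Slbp (21.4), Lsm10 (19.2), Sympk (18.8) and Cpsf2 (16.3) came next in this order, and neighbours among these 4 overlapped across the libraries. Eri1 (9.44) stood apart from the genes on either side of it. Lsm11 (3.79), Npat (3.01) and Casp8ap2 (2.98) again overlapped with their neighbours, and Zfp473 lay below the lowest Casp8ap2 value in every library. Of the 2 Lsm proteins that define the U7 snRNP, Lsm10 was thus the more abundant transcript in all 4 libraries on this scale.

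**Figure D1:**
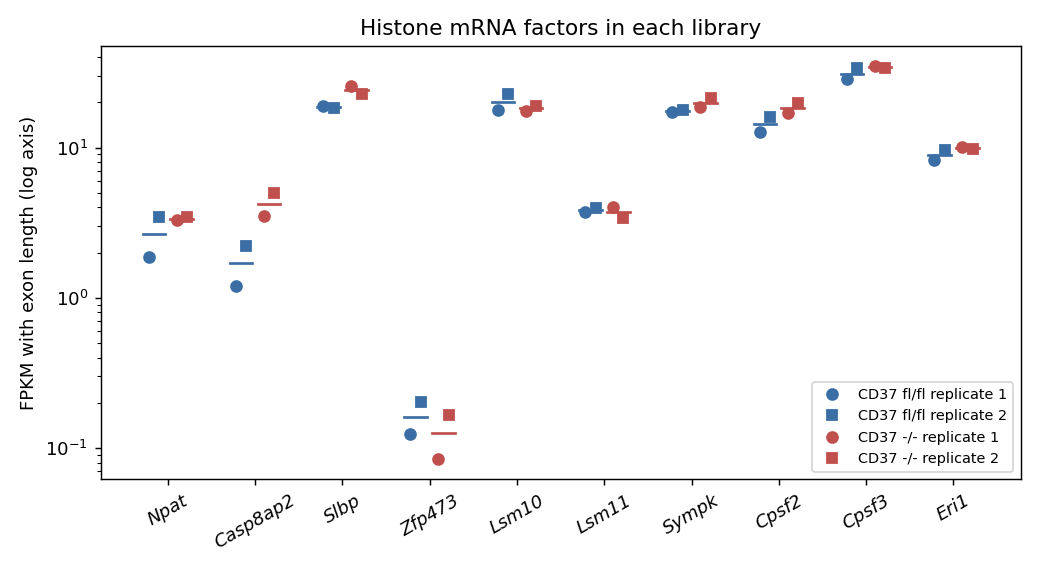
FPKM with exon length (vertical, log axis) of the 10 factors in each of the 4 libraries, with circles and squares for replicates 1 and 2, blue for CD37 fl/fl, red for CD37 -/- and a bar for each group's mean. Casp8ap2 shows the widest gap between the groups (1.2 and 2.22 against 3.48 and 5.01), while the values of Npat, Zfp473, Lsm10 and Lsm11 overlap.

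Whether loss of Cd37 altered the transcripts of this machinery was asked gene by gene. By limma, with p-values adjusted over the 11774 genes after Benjamini and Hochberg, 0 of the 9 tested members and 0 of all genes (0%) passed an adjusted p of 0.05, and the smallest adjusted p of any gene was 0.107. At an unadjusted p under 0.05, 1 of 9 members passed, against 22.1% of all tested genes, with 16.5% higher and 5.61% lower in CD37 -/-. With limma-voom on the recovered reads, 0 members passed at an adjusted p and 1 at an unadjusted p. The log2 fold changes, CD37 -/- against CD37 fl/fl on log2(FPKM + 0.1), ran from -0.14 to 1.1 with a median of 0.17, where the median of all tested genes was 0.23. Of the 9 members, 4 lay above that median and 5 below it. Scaling to equal medians turned both medians below 0, to -0.16 for the members and -0.1 for all tested genes. In 6 of 9 members both CD37 -/- values were above both CD37 fl/fl values, against 42.2% of all tested genes, and in 3 the groups overlapped. In the longest of 4 classes of genes by exon length, which held 6 of the 9 members, that share was 59.6%. Groups without overlap in either direction made up 60.8% of all tested genes. Bulk RNA cannot tell fewer cells of a type from less RNA per cell, and this holds for each value below.

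Casp8ap2 (ENSMUSG00000028282, chr4:32615451-32653265, plus strand, GRCm38) encodes FLASH, which links the histone locus body to the cleavage of histone pre-mRNA. Its FPKM was 0.217 and 0.401 in CD37 fl/fl (0.309 ± 0.13, SD, n = 2) and 0.628 and 0.905 in CD37 -/- (0.766 ± 0.196, SD, n = 2). These values rest on 126, 263, 421 and 774 reads. Both CD37 -/- libraries were thus above both CD37 fl/fl libraries, although replicates of a group differed by 1.85-fold and 1.44-fold. The log2 fold change was 1.1 (standard error 0.35, 95% interval 0.2 to 2.0), a 2.14-fold higher level with an interval from 1.15-fold to 4.0-fold. The unadjusted limma p was 0.0254 and the adjusted p was 0.184, so that Casp8ap2 was the member at an unadjusted p under 0.05. Its fold change stood at the 90.2 percentile of all tested genes. Leaving out CD37 fl/fl replicate 1 gave a log2 fold change of 0.77 with an unadjusted p of 0.104, and leaving out CD37 -/- replicate 2 gave 0.87 with 0.138. A pseudocount of 1, which flattens genes of low FPKM, reduced the log2 fold change to 0.43.

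Npat (ENSMUSG00000033054, chr9:53537047-53574342, plus strand), the coactivator that shares the histone locus body with FLASH, overlapped between the groups. Its FPKM was 0.311 and 0.58 in CD37 fl/fl (0.446 ± 0.19, SD, n = 2) and 0.547 and 0.579 in CD37 -/- (0.563 ± 0.0229, SD, n = 2), from 178, 375, 362 and 489 reads. CD37 fl/fl replicate 1 was low, and the other 3 libraries lay within a narrow band. The log2 fold change was 0.33 (standard error 0.34, 95% interval -0.53 to 1.18, adjusted p = 0.572 by limma with Benjamini-Hochberg adjustment). Without CD37 fl/fl replicate 1 it was -0.04. Atm, which encodes a DNA damage kinase and is transcribed away from Npat, starts 376 bases from it. In CD37 fl/fl, Atm had 80 and 158 reads, and in CD37 -/- 166 and 348, with a log2 fold change of 0.38 (standard error 0.33, adjusted p = 0.502 by limma) that was 0.22 without CD37 fl/fl replicate 1. Its FPKM was close to the minimum for the test, at 0.0535 and 0.0934 against 0.0959 and 0.158. The log2 fold change of Atm was 0.07 with a pseudocount of 1, 0.71 with exon length and 0.8 with limma-voom. That of Npat was 0.39 in the last 2 of these. Npat reads per Atm read were 2.23 and 2.37 in CD37 fl/fl against 2.18 and 1.41 in CD37 -/-.

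Reads of 2 genes in 1 library can be divided by each other without any scaling between libraries. Because Casp8ap2 had the highest fold change of the members, its ratios were chosen after the values were known and carry no test. Casp8ap2 reads per Npat read were 0.708 and 0.701 in CD37 fl/fl against 1.16 and 1.58 in CD37 -/-. The replicates of CD37 fl/fl, which differed by 1.85-fold in Casp8ap2 itself, were close to each other in this ratio. They were not close in the ratios to Slbp and Lsm11 below. Per read of Slbp the values were 0.0717 and 0.136 against 0.152 and 0.248, and per read of Lsm11, the U7 subunit that FLASH contacts, they were 0.341 and 0.595 against 0.907 and 1.55. In 9 of 9 such ratios, 1 for each of the other members, both CD37 -/- libraries were above both CD37 fl/fl libraries, with mean ratios 1.92 to 3.42 times as high. The 9 ratios share their numerator and are not independent.

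**Figure D2:**
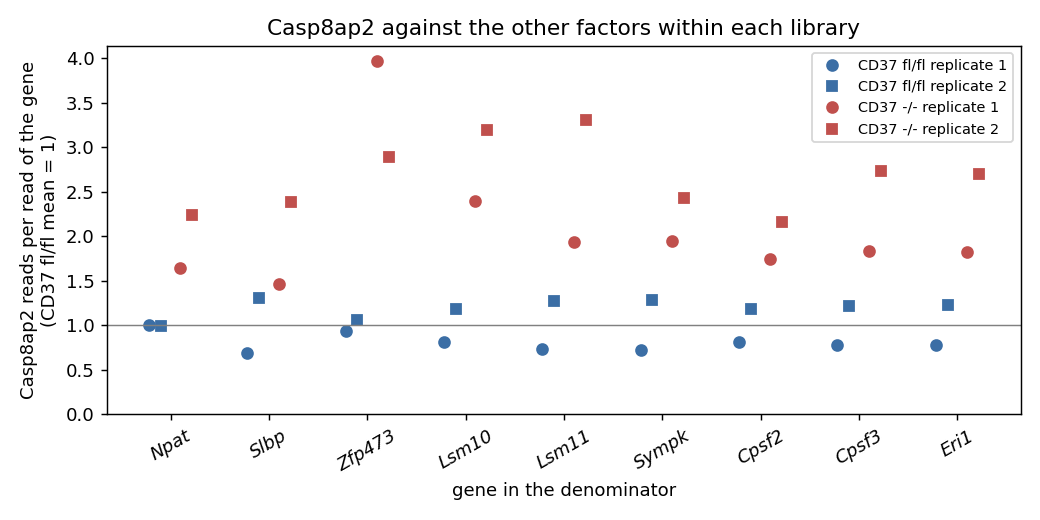
Casp8ap2 reads per read of each of the 9 other members (horizontal) within each library, divided by the mean of the 2 CD37 fl/fl libraries, so that 1 on the linear vertical axis is the control mean. Red points (CD37 -/-) lie above blue points (CD37 fl/fl) for each gene, with the smallest gap for Slbp (0.136 against 0.152 before division).

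The promoters of this pair are shown because their transcripts stood in a different ratio in the 2 groups. The sequences are from RefSeq on GRCm38.p6, which held 9 of the 10 members, Eri1 not among them, and cover the 250 bases before the start. Capitals mark the letters of an E2F site (TTT, then CC, CG, GC or GG, then CGC) or CCAAT, in either direction.
Casp8ap2, chr4:32615220-32615469, plus strand: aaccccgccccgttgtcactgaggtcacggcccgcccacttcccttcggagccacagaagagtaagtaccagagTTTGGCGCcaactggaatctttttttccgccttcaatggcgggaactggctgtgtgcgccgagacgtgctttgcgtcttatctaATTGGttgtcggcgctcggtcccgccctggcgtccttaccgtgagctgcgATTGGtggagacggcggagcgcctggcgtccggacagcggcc
Npat, chr9:53536797-53537046, plus strand: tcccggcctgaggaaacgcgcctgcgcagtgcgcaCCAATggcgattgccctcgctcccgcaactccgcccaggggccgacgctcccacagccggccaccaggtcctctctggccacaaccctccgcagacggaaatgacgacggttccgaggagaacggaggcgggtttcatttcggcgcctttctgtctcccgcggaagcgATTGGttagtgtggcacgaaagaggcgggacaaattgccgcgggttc
The E2F letters were found in 1 of the 9 members, Casp8ap2, 176 bases before its start, and in 1.91% of 27025 promoters of equal length. CCAAT was found in 4 of the 9 members (Npat, Casp8ap2, Slbp and Lsm10) and in 34.5% of the promoters. Only exact matches were counted, so a window without one, such as that of Npat, may hold an E2F site with other letters. These letters describe the windows and no binding was measured.

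Slbp (ENSMUSG00000004642, chr5:33634952-33652574, minus strand), whose protein holds the stem-loop from the nucleus to the ribosome, was among the well-covered members, with 1758, 1930, 2770 and 3119 reads. Its FPKM was 6.51 and 6.32 in CD37 fl/fl (6.41 ± 0.133, SD, n = 2) and 8.86 and 7.82 in CD37 -/- (8.34 ± 0.734, SD, n = 2). The groups did not overlap, and the gap between them was larger than the gap within either. The log2 fold change was 0.37 (standard error 0.21, 95% interval -0.17 to 0.91, adjusted p = 0.336 by limma with Benjamini-Hochberg adjustment). It lay at the 59.6 percentile of all tested genes. Across the 17 alternatives it was between 0.04 and 0.75, and above the median of all tested genes in 17 of 17, by 0.03 to 0.28. Slbp overlaps Gm10459, an annotated transcript on the opposite strand that shares 7.25% of the 31-base stretches of its transcripts, the highest share among the members.

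The U7 snRNP differs from the spliceosomal snRNPs in its LSM10 and LSM11, which take the places of SmD1 and SmD2. Lsm10 (ENSMUSG00000050188, chr4:126096623-126098584, plus strand) had an FPKM of 8.55 and 10.9 in CD37 fl/fl (9.7 ± 1.63, SD, n = 2) and of 8.39 and 9.08 in CD37 -/- (8.73 ± 0.487, SD, n = 2). The groups overlapped, with a log2 fold change of -0.14 (standard error 0.23, 95% interval -0.73 to 0.45, adjusted p = 0.734 by limma). Lsm11 (ENSMUSG00000044847, chr11:45928269-45944935, minus strand), which also carries the binding surface for FLASH, had an FPKM of 1.44 and 1.53 (1.49 ± 0.0608, SD, n = 2) against 1.57 and 1.32 (1.45 ± 0.174, SD, n = 2). Its groups overlapped too, with a log2 fold change of -0.04 (standard error 0.24, 95% interval -0.64 to 0.56, adjusted p = 0.929 by limma). These were the 2 tested members with a fold change below 0. With values scaled to equal FPKM sums (TPM rescaling) their log2 fold changes were 0.24 and 0.31, and both lay below the median of all tested genes in 17 of 17 alternatives. Reads of Lsm11 per read of Lsm10 were 1.44 and 1.2 in CD37 fl/fl against 1.59 and 1.24 in CD37 -/-.

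Zfp473 (ENSMUSG00000048012, chr7:44731480-44751050, minus strand) encodes the zinc-finger protein that bridges SLBP and the U7 snRNP. It was close to the limit of this depth, with 19 reads (95% Poisson interval 11.4 to 29.7) and 35 reads (24.4 to 48.7) in CD37 fl/fl, and with 15 reads (8.4 to 24.7) and 38 reads (26.9 to 52.2) in CD37 -/-. The intervals cover counting error only. Its mean FPKM of 0.0739, which is per kilobase of the whole span, was below the minimum for the test. In the 3 alternatives that tested it, the log2 fold change was -0.16 (all genes above 0), -0.23 (exon length) and -0.39 (limma-voom), with adjusted p-values of 0.69, 0.837 and 0.74. Replicate 1 was the lower library in both groups, and the groups overlapped. The gene overlaps Vrk3 on the opposite strand.

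The cleavage module is shared between histone pre-mRNA and pre-mRNA that receives a poly(A) tail. Cpsf3 (ENSMUSG00000054309, chr12:21285391-21315056, plus strand), the endonuclease, had an FPKM of 5.09 and 5.99 (5.54 ± 0.638, SD, n = 2) in CD37 fl/fl and of 6.25 and 6.03 (6.14 ± 0.156, SD, n = 2) in CD37 -/-, with a log2 fold change of 0.15 (standard error 0.22, 95% interval -0.41 to 0.71). Cpsf2 (ENSMUSG00000041781, chr12:101975988-102006424, plus strand), its inactive partner, had 2.38 and 3.01 (2.69 ± 0.446, SD, n = 2) against 3.18 and 3.72 (3.45 ± 0.381, SD, n = 2), with a log2 fold change of 0.35 (standard error 0.24, 95% interval -0.27 to 0.97). Sympk (ENSMUSG00000023118, chr7:19024377-19054618, plus strand), the scaffold of both, had 6.03 and 6.25 (6.14 ± 0.154, SD, n = 2) against 6.45 and 7.42 (6.93 ± 0.689, SD, n = 2), with a log2 fold change of 0.17 (standard error 0.22, 95% interval -0.38 to 0.72). In each of these 3 genes the CD37 -/- libraries lay above the CD37 fl/fl libraries by small margins, such as 5.99 against 6.03 for Cpsf3, and with equal medians the log2 fold changes of Cpsf3, Sympk and Cpsf2 were -0.18, -0.16 and 0.02. Without CD37 fl/fl replicate 1, that of Cpsf2 was 0.19. Their adjusted p-values were 0.695, 0.414 and 0.651 for Cpsf3, Cpsf2 and Sympk (limma with Benjamini-Hochberg adjustment). Within libraries, Sympk reads per Cpsf3 read were 1.21 and 1.06 in CD37 fl/fl against 1.05 and 1.25 in CD37 -/-. Cpsf2 reads per Cpsf3 read were 0.479 and 0.515 against 0.521 and 0.632. Cpsf2 overlaps Ndufb1-ps and Cpsf3 overlaps Itgb1bp1, both on the opposite strand, and whether the counting used strand is not given in the sources used here.

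Eri1 (ENSMUSG00000031527, chr8:35465253-35496196, minus strand), the exonuclease, had an FPKM of 2.35 and 2.76 (2.56 ± 0.292, SD, n = 2) in CD37 fl/fl and of 2.9 and 2.81 (2.86 ± 0.0599, SD, n = 2) in CD37 -/-. The groups did not overlap, but the margin of 2.76 against 2.81 was smaller than the gap between the CD37 fl/fl replicates. The log2 fold change was 0.16 (standard error 0.23, 95% interval -0.41 to 0.73, adjusted p = 0.686 by limma), and with equal medians it was -0.17. Slbp reads per Eri1 read, a ratio of the transcripts and not of the 2 proteins that share the stem-loop, were 1.58 and 1.3 in CD37 fl/fl against 1.74 and 1.58 in CD37 -/-.

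**Figure D3:**
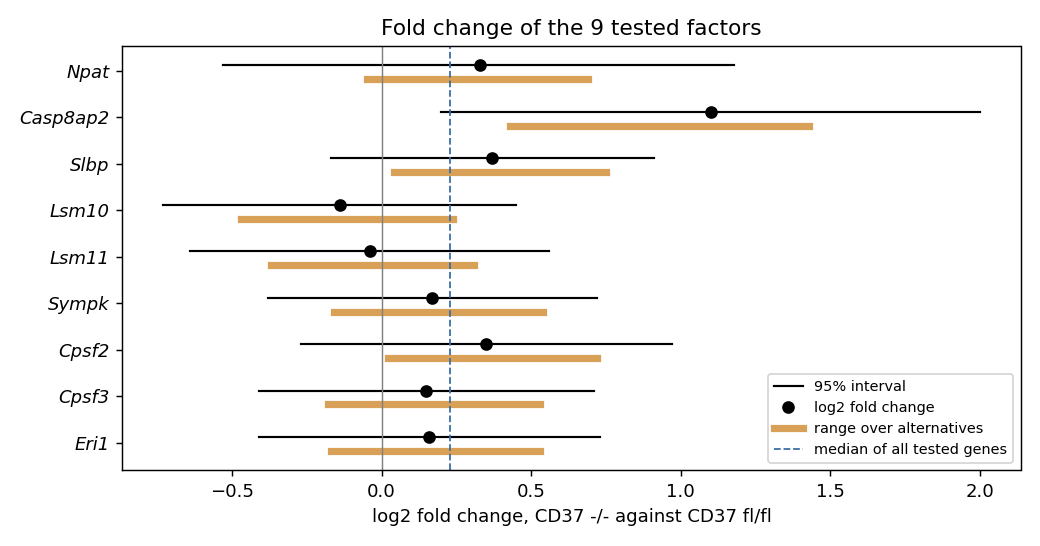
Log2 fold change of the 9 tested members, CD37 -/- against CD37 fl/fl (horizontal, linear axis), with black points and lines for the value and its 95% interval, orange bars for the range over the alternatives, and a dashed line at the median of all tested genes (0.23). The interval of Casp8ap2 (0.2 to 2.0) lies above 0 but holds the dashed line, and the intervals of the other 8 members hold both 0 and the dashed line.

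Among all tested genes, fold changes differed with gene length. In 4 classes of equal size by exon length, from the shortest to the longest, the median log2 fold change was -0.04, 0.12, 0.27 and 0.37. Both CD37 -/- values were above both CD37 fl/fl values in 25.3%, 35.2%, 49.0% and 59.6% of their genes. Of the 9 tested members, 6 were in the longest class. Within that class Casp8ap2 was 0.73 above the median, at the 92.3 percentile. Slbp was at the 50.0 percentile, Npat at 45.9, Sympk at 32.2, Eri1 at 31.6 and Lsm11 at 17.2. Outside it, Cpsf2 and Cpsf3 were at 55.4 and 40.3 of their class and Lsm10 at 45.0 of the shortest class. Scaling also moved these values, since the median of all tested genes was between -0.1 with equal medians and 0.55 with TPM rescaling. Casp8ap2 was above that median in 16 of 16 alternatives that held it, by 0.33 to 1.17. The part of gene length, of the erythroid reads and of the late neutrophil reads in the members' values was not tested.

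The transcripts of the histone clusters, the substrates of this machinery, were set beside the factors. Their summed reads were 7160 and 9146 in CD37 fl/fl (0.0467% and 0.0528% of reads) and 3255 and 3365 in CD37 -/- (0.0183% and 0.0149%). The median log2 fold change of the 54 tested genes was -1.99, with 54 below 0 and 47 lower at an unadjusted p under 0.05, against 5.61% of all tested genes, and 0 at an adjusted p (limma). This list is no independent evidence, since its change was known when the members were listed. Poly(A) selection recovers mRNAs that end in a stem-loop poorly, and tailed and untailed histone mRNAs cannot be told apart here. Tested histone genes with the stem-loop in an annotated transcript had a median of -2.0 (36 genes) and those without a match a median of -1.94 (18 genes). By core, the median was -1.97 for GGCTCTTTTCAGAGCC (20 genes), -2.04 for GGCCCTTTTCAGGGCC (7 genes) and -2.0 for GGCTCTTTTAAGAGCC (5 genes). Slbp reads per histone read were 0.246 and 0.211 in CD37 fl/fl against 0.851 and 0.927 in CD37 -/-, and for Casp8ap2 they were 0.0176 and 0.0288 against 0.129 and 0.23. These ratios were higher in both CD37 -/- libraries for every member. They share their denominator, whose fall alone raises the ratio of any gene that fell less. Zfp473, whose mean FPKM was 0.0833 in CD37 fl/fl and 0.0645 in CD37 -/-, had 0.00265 and 0.00383 against 0.00461 and 0.0113. The shared direction is therefore no result about the members. Lsm10, whose own log2 fold change was below 0, had 0.0359 and 0.0403 against 0.0897 and 0.12. Hist1h2bj, an H2B gene with the commonest core, had 426 and 584 reads against 155 and 144. Hist1h1c, a linker histone gene that carries the same core, had 924 and 965 reads against 851 and 1007, with a log2 fold change of -0.33, the value of the list nearest to 0.

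Beyond the members, 102 other genes of histone mRNA synthesis, assembly, processing and decay were listed, of which 97 were in the table and 92 were tested. At an unadjusted p under 0.05, 17 were higher and 8 lower (27.2%, against 22.1% of all tested genes), 0 passed at an adjusted p, and the median log2 fold change was 0.24. Among 9 tested regulators of histone gene transcription, 5 were higher and 0 lower at an unadjusted p, against 16.5% and 5.61% of all tested genes. Their median was 0.68, where that of all tested genes was 0.23. Here Ccne2, the cyclin that activates NPAT through CDK2, had 14 and 20 reads against 64 and 228 (log2 fold change 1.66, standard error 0.46, adjusted p = 0.17 by limma). Ccne1 had an FPKM of 3.03 and 3.35 against 4.67 and 4.93 (0.57, standard error 0.21, adjusted p = 0.215 by limma). Cdk2, the kinase, had 6.25 and 10.4 against 16.5 and 17.4 (1.06, standard error 0.3, adjusted p = 0.171 by limma). In these 3 genes the groups did not overlap, as in 60.8% of all tested genes. The log2 fold change was 1.06 for Ccne2 without CD37 -/- replicate 2 and 0.7 for Cdk2 without CD37 fl/fl replicate 1, and the unadjusted p of Ccne1 was between 0.064 and 0.156 without 1 library.

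The 5 Sm proteins that the U7 ring shares with the spliceosome had a median of -0.37, with 1 lower and 0 higher at an unadjusted p under 0.05. Of all tested genes, 5.61% were lower and 16.5% higher. Snrpf had an FPKM of 14 and 17.8 against 7.2 and 9.95 (log2 fold change -0.89, adjusted p = 0.176 by limma). Snrpb (-0.07), Snrpd3 (0.0), Snrpe (-0.62) and Snrpg (-0.37) overlapped between the groups, and CD37 -/- replicate 2 was the lowest library for Snrpb, Snrpe and Snrpg. Without that library Snrpe was at -0.01 and Snrpg at 0.66, and without CD37 -/- replicate 1 they were at -1.24 and -1.4. Snrpd2, which LSM11 replaces in U7, had 88.4 and 97.1 against 67.6 and 40.5 (-0.82, adjusted p = 0.222 by limma), and was at -0.45 without CD37 -/- replicate 2. Among 10 tested genes of Sm ring assembly the median was -0.01, with 0 higher and 1 lower, from Gemin7 (-0.67) to the helicase gene Ddx20 (0.46).

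Of the general cleavage and polyadenylation factors, 4 of 16 were higher and 1 lower at an unadjusted p under 0.05, with a median of 0.35. Among all tested genes, 16.5% were higher and 5.61% lower. Pcf11, a termination factor, had 171 and 214 reads against 676 and 1251, the highest log2 fold change of this list (1.76, standard error 0.29, adjusted p = 0.109 by limma). Pabpn1, the nuclear poly(A)-binding protein gene, had 234 and 161 reads against 125 and 72 (-1.23, standard error 0.44, adjusted p = 0.206 by limma), with -0.71 when CD37 -/- replicate 2 was left out. Cstf2, whose protein CstF64 is also found in the histone cleavage complex, had an FPKM of 1.1 and 1.85 against 2.25 and 3.09 (0.84, standard error 0.34, adjusted p = 0.228 by limma), with 0.49 when CD37 fl/fl replicate 1 was left out. Ints9 and Ints11, which encode the Integrator relatives of CPSF100 and CPSF73, had log2 fold changes of 0.11 and 0.58. Neither overlapped between the groups, which held for 60.8% of all tested genes. For Ints9 the margin was small, an FPKM of 0.64 against 0.648, and its log2 fold change was -0.22 with equal medians. Among 8 cap and elongation genes, 2 were higher and 1 lower. Ncbp1, the large cap-binding subunit, had 81 and 149 reads against 527 and 922 (1.91, standard error 0.32, adjusted p = 0.114 by limma), and Nelfe, a subunit of the pausing factor NELF, had an FPKM of 38.2 and 35.2 against 21.5 and 13.2 (-1.12, adjusted p = 0.164 by limma).

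In the decay list, 1 of 24 tested genes was higher and 3 lower at an unadjusted p under 0.05, with a median of 0.15. Among all tested genes, 16.5% were higher and 5.61% lower. Tut7, which adds uridines to the ends of RNAs, had an FPKM of 0.866 and 0.597 against 1.45 and 2.13 (1.18, adjusted p = 0.164 by limma). Exosc5, an exosome subunit, had 23.1 and 24.8 against 16.8 and 11.0 (-0.82, and -0.51 without CD37 -/- replicate 2, adjusted p = 0.195 by limma with all libraries), and Upf1, the helicase that SLBP recruits for decay, had 5.75 and 6.43 against 6.48 and 8.56 (0.29, adjusted p = 0.494 by limma). Of 7 tested partners in Slbp translation and turnover, 4 were higher and 0 lower, against the same 16.5% and 5.61% of all tested genes. Their median was 0.58. Dcaf11, a ubiquitin ligase receptor for SLBP, had 1.2 and 1.53 against 2.92 and 4.3 (1.32, adjusted p = 0.14 by limma). Histone chaperones had a median of 0.1 (1 of 9 higher, 0 lower), from Ipo4 at -0.49 to Chaf1a at 0.88.

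Markers of S phase and histones with poly(A) tails were set beside the members. Of 14 S phase genes, 5 were higher and 0 lower at an unadjusted p under 0.05, against 16.5% and 5.61% of all tested genes. Their median was 0.38, where that of all tested genes was 0.23 and that of the longest class by exon length was 0.37. The part of gene length in this list was not tested. The helicase subunit gene Mcm4 had its highest log2 fold change (1.33). Of 7 histone genes whose mRNAs carry poly(A) tails, 1 was higher and 0 lower, with a median of -0.29. H2afy, the macroH2A gene, had 1.21 and 3.02 against 3.83 and 6.23 (log2 fold change 1.3), which was 0.68 without CD37 fl/fl replicate 1, where it lost its unadjusted call, and 1.93 without CD37 fl/fl replicate 2. H3f3b, an H3.3 gene, had 365 and 294 against 225 and 216 (-0.57, adjusted p = 0.272 by limma).

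**Figure D4:**
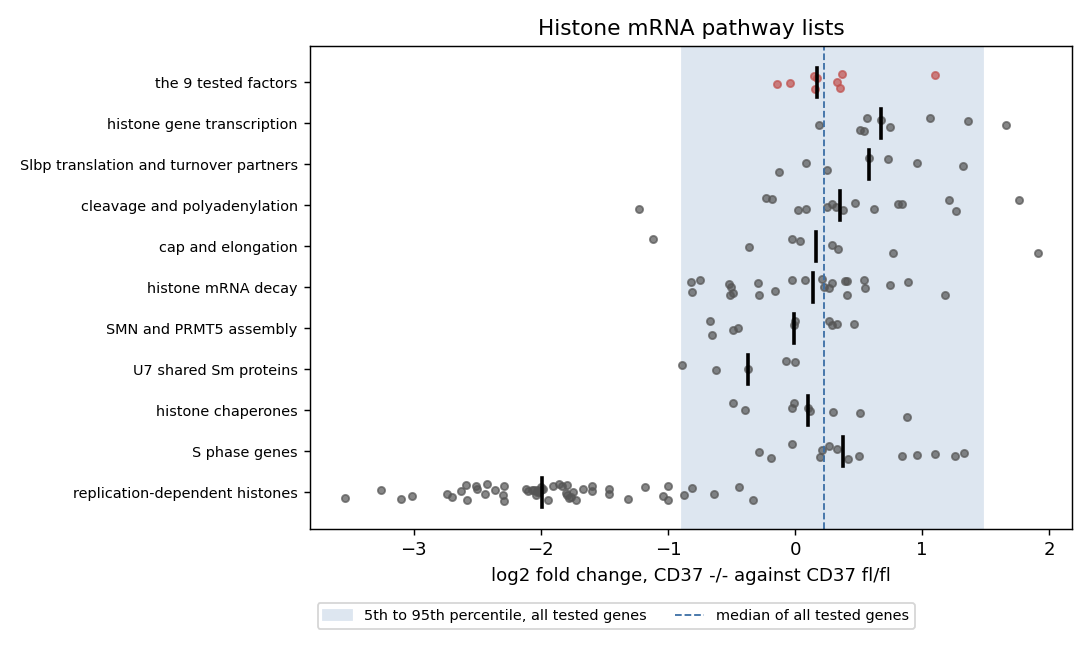
Log2 fold change, CD37 -/- against CD37 fl/fl (horizontal, linear axis), of each tested gene in the 9 members (red) and in 10 lists of related genes (grey), with a black bar at each median, a dashed line at the median of all tested genes and a band from their 5th to 95th percentile (-0.89 to 1.48). The members' median (0.17) lies near the dashed line (0.23), whereas the median of the replication-dependent histones (-1.99) lies to the left of the band.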

How the data were processed

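RNA of sorted LSCs (2 CD37 fl/fl and 2 CD37 -/- libraries, poly(A) selected, strand-marked, described as independent replicates) was sequenced by the authors. The submitters' processing notes name fastp 0.20.1, STAR 2.7.7a, featureCounts 2.0.0 and edgeR, and a genome build other than GRCm38, without roles. The authors deposited FPKM values, 1 column per library, unlogged and unpooled. Gene identifiers were matched to GENCODE M21 (GRCm38) for 17045 of 17104 genes (99.7%), and positions printed are of that build. Multiplied by the genomic span of each gene, introns included, 98.9% of values were whole reads within 0.05 read (chance gives 10.0%), against 9.7% to 10.4% with exon length. A gene with long introns thus has a low FPKM for its reads. Reads, within-library ratios and FPKM with exon length were derived from these.

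Fits used log2(FPKM + 0.1), on which changes of low genes look smaller than they are, for genes whose mean FPKM was 0.1 or more, with limma 3.58.1 (lmFit, eBayes with a trend, Benjamini-Hochberg, R 4.3.3) on the 4 libraries without covariates. Stem-loops, promoter letters and tables were computed with Python 3.11.15, pandas 2.3.3, numpy 2.4.6 and scipy 1.17.1, and figures with matplotlib 3.10.9. The fit was tested on simulated data. As each group holds 2 libraries, p-values measure the spread between these samples. Replicates differed by more than sampling noise (chi-square per degree of freedom 93.4 in CD37 fl/fl and 61.0 in CD37 -/-). The members and lists were chosen with earlier results of these data known. Genes named are the members, the highest and lowest tested gene of each list and a few fixed by role, of which some are not reported here. The alternatives were other pseudocounts, filters, scalings and variance models, the replicate block, each library left out, exon length, limma-voom on recovered reads, and other thresholds.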

Additional observations from a re-analysis of the deposited data

How the results depend on the processing

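At an adjusted p under 0.05, 0 genes passed under each alternative fit, and the unadjusted p gave 2606 of all genes, 25 of the related genes and 1 member. Counts below are at that unadjusted p. All genes had 1946 higher and 660 lower, which became 1091 higher with a mean FPKM of at least 1, 1075 higher and 1190 lower with quantile normalization, 3395 and 244 with TPM rescaling, 897 and 1700 with equal medians, and 1151 lower with the upper quartile. Leaving out 1 library, with a lone sample taken to vary like the others, gave 795 to 1745 higher and 341 to 717 lower, lowest without CD37 -/- replicate 2. Members (1) were 0 with a mean FPKM of at least 1, which leaves out Npat and Casp8ap2, 0 with all genes above 0, quantile normalization or equal medians, 2 with TPM rescaling, and 0 to 1 without 1 library (0 without CD37 fl/fl replicate 1 or CD37 -/- replicate 2). Related genes (17 higher, 8 lower) were 10 and 13 with quantile normalization, 33 and 1 with TPM rescaling, 9 and 18 with equal medians, 17 lower with the upper quartile, 5 lower with all genes above 0 or without a trend, and 6 to 16 higher and 1 to 9 lower without 1 library, with 8, 10 and 6 higher without CD37 fl/fl replicate 1, CD37 -/- replicate 1 and CD37 -/- replicate 2.

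With the replicate number as a block, 5 related genes were lower, and no other count here moved by over 1.5 times. Of the genes named, Ccne1, Snrpd2 and Exosc5 lost their call at an unadjusted p under the block (adjusted p of 0.263, 0.265 and 0.238 by limma), and Cstf2 gained one (adjusted p of 0.192). The block called 1 member, Casp8ap2, at an unadjusted p. Same-numbered libraries did not deviate together (correlation -0.06 over 11774 genes), so the numbers were not used as pairs.

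The median log2 fold change of the members (0.17) was -0.02 with quantile normalization, 0.54 with TPM rescaling, 0 with the upper quartile, -0.16 with equal medians and 0.05 to 0.27 without 1 library, lowest without CD37 fl/fl replicate 1. For the related genes (0.24) it was -0.02, 0.59, 0.09 and -0.1 in the same order, 0.14 with a pseudocount of 1, 0.1 where the mean FPKM was 1 or more, and 0.11 without CD37 fl/fl replicate 1 or CD37 -/- replicate 1. For all genes (0.23) it was -0.03, 0.55, 0.08 and -0.1, and 0.1 with a pseudocount of 1 and 0.13 with a mean FPKM of at least 1. Signs turned for Npat with quantile normalization (-0.05), equal medians (-0.01) and without CD37 fl/fl replicate 1 (-0.04, the lowest of a range up to 0.69 without 1 library), for Lsm10 with TPM rescaling (0.24) and without CD37 fl/fl replicate 2 (0.03, range from -0.31), and for Lsm11 with TPM rescaling (0.31) and without CD37 -/- replicate 2 (0.07). They turned for Cpsf3 (-0.02, -0.02 and -0.18), Eri1 (-0.11, -0.01 and -0.17), Ints9 (-0.27, -0.03 and -0.22) and Snrpd3 (-0.07, -0.17 and -0.33) with quantile normalization, the upper quartile and equal medians, and for Snrpd3 without CD37 fl/fl replicate 1 (-0.13) or CD37 -/- replicate 1 (-0.14, range up to 0.15). They turned for Sympk (-0.16) and Upf1 (-0.04) with equal medians, for Snrpb with TPM rescaling (0.31) and quantile normalization (0.09), and for Snrpb (0.11, range from -0.25) and Snrpg (0.66, range from -1.4) without CD37 -/- replicate 2. None of these genes had passed the test, and the causes were not tested. The minimum on FPKM over the whole span left Zfp473, with 15 to 38 reads, out of the test, and the 3 alternatives that held it gave -0.39 to -0.16.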
